A study of Homo sapiens with 10 samples.

Results

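The metallothioneins MT1E, MT1F, MT1G, MT1M, MT1X and MT2A were examined together with 3 other genes of cellular zinc control, MTF1, SLC30A1 and SLC39A10, in HEK293T cells grown without cysteine, with the usual amount or with an excess. These 9 genes were taken by name from a table of 78894 genes. HEK293T is a human embryonic kidney cell line that carries the SV40 large T antigen. The cells, for which the labels name no genetic change, were kept for 24 h in medium labelled 0X-Cys (no cysteine, n = 2 libraries), 1X-Cys (the amount of complete medium, n = 4) or 10X-Cys (a 10-fold excess, n = 4), and poly(A) RNA was sequenced. The labels call the libraries biological replicates of a single line and do not say how the cultures were separated, so the tests measure the spread between these libraries. Zinc and copper themselves were not measured, and the counts are of mRNA. In bulk RNA a change in the number of expressing cells and a change per cell cannot be told apart.

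Metallothioneins are very small proteins that hold zinc, copper and other metals in clusters of cysteine thiolates. Their genes are among the best known targets of MTF1, a zinc finger transcription factor that binds short DNA words called metal response elements when cytosolic zinc rises. MTF1 also activates SLC30A1, which exports zinc across the plasma membrane, whereas SLC39A10, a zinc importer of the plasma membrane, is known to be repressed by MTF1 when zinc is ample. Heavy metals, oxidants and glucocorticoids also raise metallothionein mRNA, so it is not specific to zinc.

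All 6 metallothioneins named here lie in a cluster on chromosome 16. In GRCh38 with the GENCODE 44 annotation this cluster ran from MT4 to MT1X (chr16:56565073-56684196), over 119124 bases. It held 17 entries of the metallothionein genes and pseudogenes examined, with MT1JP entered both as a pseudogene and as a long noncoding RNA. Other annotated genes in this stretch were not counted. MT2A lies at chr16:56608584-56609497, MT1F at chr16:56657731-56660698 and MT1X at chr16:56682470-56684196, all on the plus strand. The other 3 genes lie elsewhere, MTF1 on chromosome 1 (chr1:37809574-37859592, minus strand), SLC30A1 on chromosome 1 (chr1:211571568-211579161, minus strand) and SLC39A10 on chromosome 2 (chr2:195575977-195737702, plus strand). The encoded proteins differ widely in cysteine content. Of the codons of MT2A, MT1X and MT1F, 20 of 61 encode cysteine in each gene (32.8%), against 21 of 753 in MTF1, 18 of 507 in SLC30A1, 15 of 831 in SLC39A10 and a median of 2.02% over 19874 protein-coding genes.

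The sequences upstream of the start sites were searched for the DNA word that MTF1 is known to bind. The 250 bases before the start site are printed 5′ to 3′ on the gene's strand for MT2A and MT1X, the most abundant metallothioneins here, and for SLC30A1, the other textbook target. They come from RefSeq on GRCh38.p14, and capitals mark matches to the metal response element core, searched as TGCACNC and TGCGCNC on both strands (on the opposite strand the match reads GNGTGCA or GNGCGCA).
MT2A, chr16:56608334-56608583, plus strand: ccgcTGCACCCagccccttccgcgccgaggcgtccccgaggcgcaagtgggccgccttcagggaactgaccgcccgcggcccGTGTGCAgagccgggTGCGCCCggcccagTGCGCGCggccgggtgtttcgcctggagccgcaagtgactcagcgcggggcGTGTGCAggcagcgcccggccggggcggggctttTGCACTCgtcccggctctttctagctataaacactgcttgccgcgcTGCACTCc
MT1X, chr16:56682220-56682469, plus strand: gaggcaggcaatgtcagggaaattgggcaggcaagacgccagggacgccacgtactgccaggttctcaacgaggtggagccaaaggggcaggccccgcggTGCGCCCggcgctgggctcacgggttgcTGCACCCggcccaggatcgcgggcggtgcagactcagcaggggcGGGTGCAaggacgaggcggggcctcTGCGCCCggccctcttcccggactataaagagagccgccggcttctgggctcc
SLC30A1, chr1:211579162-211579411, minus strand: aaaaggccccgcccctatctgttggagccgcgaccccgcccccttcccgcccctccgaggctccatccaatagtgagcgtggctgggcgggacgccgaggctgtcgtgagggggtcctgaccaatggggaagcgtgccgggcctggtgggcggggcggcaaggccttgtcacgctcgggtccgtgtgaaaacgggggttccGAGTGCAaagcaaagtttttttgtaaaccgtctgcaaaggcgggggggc
The MT2A window held 7 matches, a number reached by 0.0313% of 35116 upstream windows of the same length. MT1X had 4 (reached by 0.370%) and SLC30A1 had 1 (reached by 24.8%), and no matches overlapped. No match was found upstream of MTF1 or in either of the 2 SLC39A10 windows. The table of promoters matched 5 of the 9 genes. MT1E, MT1F, MT1G and MT1M had no entry. A match is only a run of letters, and the MT1H window, with 8 matches, belongs to a gene that never exceeded 0.853 normalized counts in these libraries.

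The libraries held 34836014 to 61654861 reads on genes, and values are normalized counts, that is, reads divided by a size factor for each library. A single read was worth 0.642 to 1.24 normalized counts, and 3 reads, taken as the floor of detection, 1.93 to 3.71. The floors cover counting error only, whereas the confidence intervals of the fold changes below rest on the spread between libraries. Every read number of MT2A and MT1F was even in all 10 libraries, whereas MT1X was even in 6, MTF1 in 8, and SLC30A1 and SLC39A10 in 4 of the 10. Of all values above 0, 56.1% were even, and of those between 1 and 20 reads 62.2%. For MT2A and MT1F the independent fragments behind a value can be fewer than its reads. Of the reads on genes, 0.117 to 0.146% were mitochondrial at 10X-Cys, against 4.51 to 5.05% at 1X-Cys and 5.15 to 5.71% at 0X-Cys. The part of this difference in the results below was not tested. Scaling on nuclear genes alone changes only the scale of each library, and the 10X-Cys calls of these genes were also made with it. All 6 HEK293 marker genes were expressed, while the markers of T cells, hepatocytes and mature kidney epithelium summed to at most 13.7, 34.6 and 57.8 normalized counts in any library. The 5 markers of breast epithelium summed to 3145 to 3768 normalized counts, nearly all of it ERBB2 and GATA3, and KRT7 and TFAP2B had no read.

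Metallothionein mRNA moved in a graded manner with cysteine, highest without it and lowest in the excess. MT2A, which like the other metallothioneins binds zinc and copper, stood at 410 and 301 normalized counts in the 2 libraries at 0X-Cys. At 1X-Cys its counts were 158, 109, 197 and 119, and at 10X-Cys 44.9, 34.8, 51.2 and 32.3. The 3 groups did not overlap.

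MT1X behaved alike, with 355 and 333 normalized counts at 0X-Cys. Its 4 libraries at 1X-Cys held 131, 149, 185 and 70.2, the last of these being replicate 4. The excess left 16.7, 17.4, 31.6 and 22.1. Again no group overlapped another. Of the exonic bases of MT1X, taken over all its annotated transcripts, 321 of 1727 (18.6%) are shared with the unnamed gene ENSG00000259827 on the same strand. The share within its main transcript of 404 bases was not computed. According to the study's methods, reads over several genes were discarded. This neighbour read 185 ± 5.68 (SD, n = 2), 89.2 ± 35.4 (n = 4) and 14.8 ± 5.12 (n = 4) normalized counts at 0X, 1X and 10X-Cys.

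MT1F was the least abundant of the 3 detected metallothioneins. It had 59.2 and 72.0 normalized counts at 0X-Cys and 23.1, 24.7, 26.4 and 39.5 at 1X-Cys. At 10X-Cys it fell to 1.28, 4.35, 5.12 and 3.40, which rest on 2 to 6 reads a library (16 in all) and lie at or around the floor. The groups did not overlap, but the size of this last difference is set by a handful of reads. MT1F passed the filter on low values only through the libraries at 0X-Cys and 1X-Cys.

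The remaining metallothioneins were silent or nearly so. MT1E and MT1M had no read in any library, and MT1G had 2 reads, both in 10X-Cys replicate 3. Among the 13 other metallothionein genes and pseudogenes examined none passed the filter, and the highest value of any of them was 3.21 normalized counts (MT1P1). Each library thus allows at most 3 reads of MT1E or MT1M. Reads of MT1E, MT1G and MT1M can be split with near-identical copies. Of their 75-base windows, 11.9%, 6.55% and 1.23% occur elsewhere in the genome or in annotated transcripts of other genes. The share was 8.18% for MT1X, and MT2A and MT1F had no such window.

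Summed over the 6 genes, metallothionein mRNA was 765 ± 84.1 normalized counts (SD, n = 2) at 0X-Cys, 308 ± 75.3 (n = 4) at 1X-Cys and 66.7 ± 15.5 (n = 4) at 10X-Cys. The mean without cysteine was 2.49 times that at 1X-Cys, and the mean in the excess was 4.61-fold lower. Per kilobase of transcript, MT2A, MT1X and MT1F read 887, 851 and 154 normalized counts at 0X-Cys. At 10X-Cys the per-kilobase levels were 102 for MT2A, 54.3 for MT1X and 8.32 for MT1F. The whole transcript length was used, without correction for fragment length. As the fragments of MT2A and MT1F can be fewer than their reads, these per-kilobase levels are not ranked between genes.

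**Figure D1:**
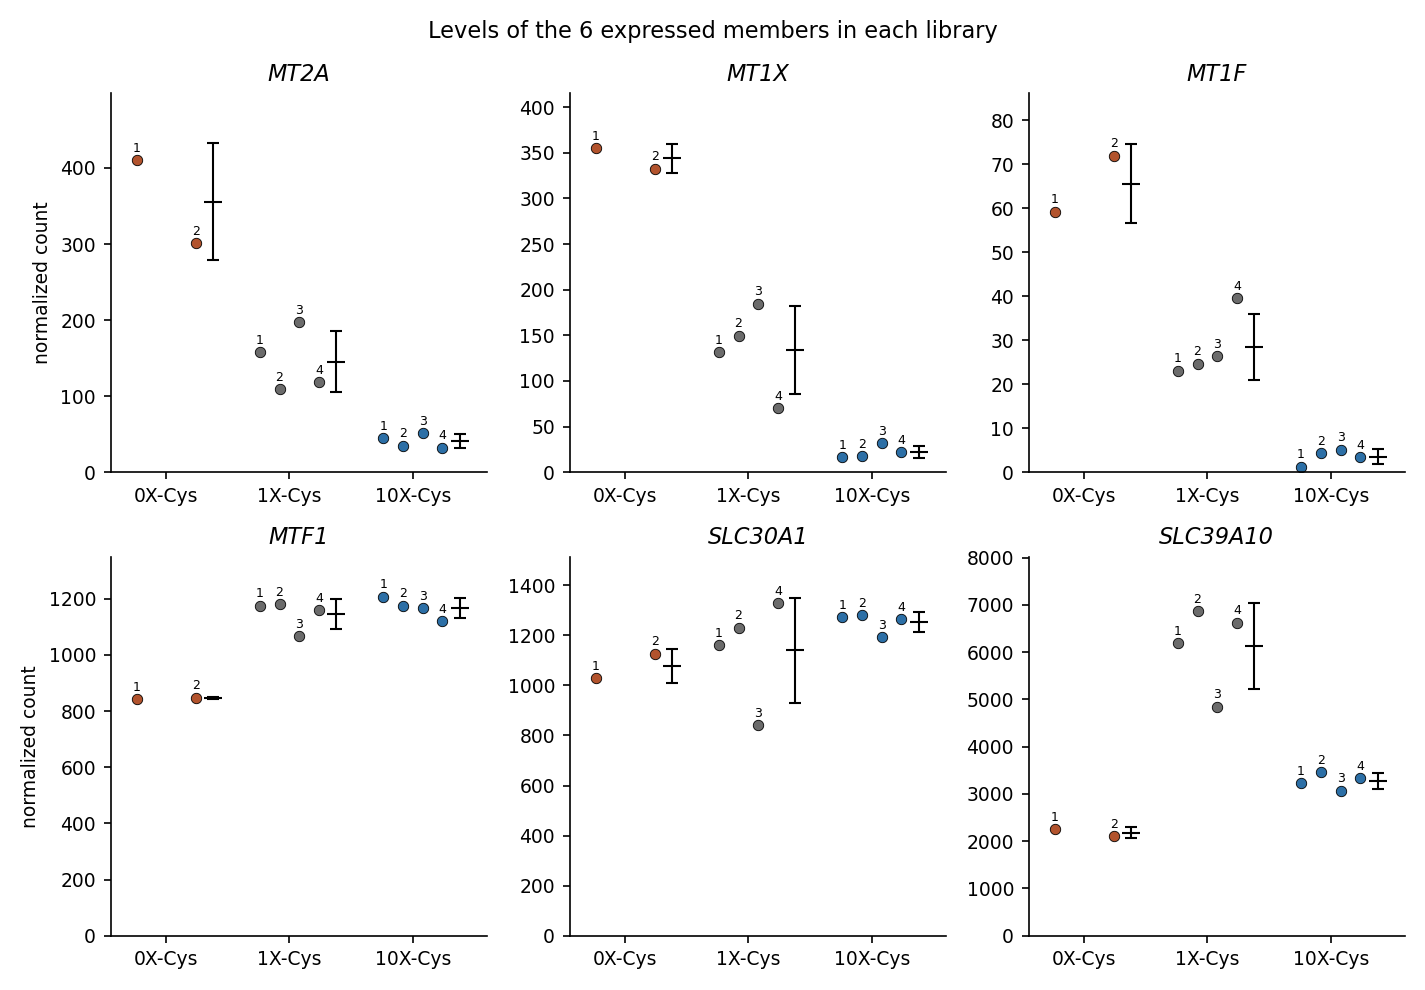
Normalized count (y axis, starting at 0) of MT2A, MT1X, MT1F, MTF1, SLC30A1 and SLC39A10 in each library; points are libraries with their replicate numbers, and the bar beside them is the group mean with its SD. The metallothioneins step down from 0X-Cys to 10X-Cys without overlap, SLC39A10 peaks at 1X-Cys, and 1X-Cys replicate 3 is the lowest 1X-Cys library for MTF1, SLC30A1 and SLC39A10.

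Cysteine withdrawal was tested by setting 0X-Cys against 1X-Cys over 29045 genes with limma on log2(normalized count + 1), on which scale all fold changes are given. At an adjusted p of 0.01 or less, 15.9% of all genes were called (7.39% higher and 8.51% lower at 0X-Cys), while 6 of the 9 genes could be tested and 5 were called, 3 higher and 2 lower. The median log2 fold change of the 6 tested genes was 0.57, against 0.00 over all genes. As these genes split in direction, it falls between SLC30A1 (-0.06) and MT1F (1.20) and describes neither. The 3 detected metallothioneins rose. MT2A had a log2 fold change of 1.31 ± 0.218 (SE, limma adjusted p = 6.64e-04), MT1X 1.44 ± 0.277 (adjusted p = 1.82e-03) and MT1F 1.20 ± 0.300 (adjusted p = 8.99e-03). With only 2 libraries at 0X-Cys the calls were fragile. With no filter on low values limma called none of the 5 (adjusted p 0.0153 to 0.136, unadjusted p at most 0.0189), while edgeR and DESeq2 with the filter called all 5. MT1F also lost its call under quantile normalization and when all 3 groups entered one fit. Without 0X-Cys replicate 1, 1 of the 6 genes (SLC39A10) was still called, without replicate 2 there were 2, and without 1X-Cys replicate 1 or 2 there were 3 and 4. With a 0X-Cys library left out, MT2A lay 1.08 to 1.53 higher, MT1X 1.39 to 1.48 and MT1F 1.06 to 1.34. Over all alternatives, left-out 1X-Cys libraries included, MT1X ran from 1.16 to 1.62 and MT1F from 0.99 to 1.41. The direction held in each. An exact permutation test of 2 against 4 libraries cannot go below p = 0.133, the value that each of the 5 called genes gave.

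In cysteine excess, set against 1X-Cys in the same way, all 3 detected metallothioneins were lower. In this comparison 46.0% of all genes were called, 23.1% higher and 22.9% lower at 10X-Cys, and 4 of the 6 tested genes were called, all of them lower. MT1X fell by 2.52 ± 0.272 (adjusted p = 5.24e-07) and MT2A by 1.79 ± 0.203 (adjusted p = 9.48e-07). MT1F is among the 4, but it entered the test only through its higher groups and its 10X-Cys values lie around the floor. Its log2 fold change was -2.76 ± 0.405 (adjusted p = 1.80e-05) and ran from -3.16 to -1.50 over the alternatives, so its size is not ranked against the others. Here no single library decided a call, and each of the 4 genes reached the smallest p that an exact permutation test of 4 against 4 libraries allows (two-sided p = 0.0286). Scaling the libraries to equal totals put the median of all genes at 0.12 and the share of higher calls at 61.8% instead of 50.3%, and left the same number of these 9 genes called.

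Between the extremes of cysteine, 10X-Cys against 0X-Cys, all 6 tested genes were called (48.0% of all genes, 24.4% higher and 23.6% lower at 10X-Cys). The log2 fold change was -3.95 ± 0.245 for MT1X (adjusted p = 7.97e-13) and -3.10 ± 0.204 for MT2A (adjusted p = 2.35e-12). In ratios of means the levels at 0X-Cys exceeded those at 10X-Cys 15.7-fold for MT1X and 8.71-fold for MT2A. For MT1F, with the same limit at 10X-Cys, the log2 fold change was -3.96 ± 0.508 (adjusted p = 3.05e-07) and ran from -4.28 to -2.48 over the alternatives, and no ratio is given. The 3 comparisons share libraries, each group entering 2 of them, and so are not independent evidence of direction.

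The regulator MTF1 did not move with the metallothioneins. It had 843 and 848 normalized counts at 0X-Cys, 1175, 1181, 1066 and 1159 at 1X-Cys, and 1208, 1176, 1167 and 1122 at 10X-Cys. Both libraries without cysteine lay below all others, and the remaining groups overlapped. MTF1 mRNA was thus lowest where metallothionein mRNA was highest, with a log2 fold change of -0.44 ± 0.0763 against 1X-Cys (adjusted p = 9.38e-04), a call that was lost without either 0X-Cys library (adjusted p = 0.0228 and 0.0221). Between 10X-Cys and 1X-Cys its log2 fold change was 0.03 (95% interval -0.09 to 0.15, adjusted p = 0.676), and -0.0050 without 1X-Cys replicate 3. Against 0X-Cys it was 0.46 ± 0.0598 higher at 10X-Cys (adjusted p = 3.19e-07).

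The exporter SLC30A1, the other textbook MTF1 target, was called in 1 of the 3 comparisons, 10X-Cys against 0X-Cys. Its counts were 1028 and 1127 at 0X-Cys, 1160, 1230, 842 and 1328 at 1X-Cys, and 1272, 1281, 1194 and 1265 at 10X-Cys. The 1X-Cys libraries overlapped both other groups, and replicate 3 was the lowest of the 10. No call was made for 0X-Cys against 1X-Cys (log2 fold change -0.06, 95% interval -0.36 to 0.24, adjusted p = 0.777) or for 10X-Cys against 1X-Cys (0.16, -0.06 to 0.37, adjusted p = 0.200). Without 1X-Cys replicate 3 these were -0.20 (adjusted p = 0.0610) and 0.02 (adjusted p = 0.815). At 10X-Cys it was 0.22 ± 0.0600 higher than at 0X-Cys (adjusted p = 3.08e-03), a direction opposite to that of the metallothioneins. That call was lost with no filter on low values and when all 3 groups entered one fit. It was also lost without 0X-Cys replicate 1, where the log2 fold change was 0.15.

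SLC39A10, the zinc importer, was highest at the usual amount of cysteine. It had 2257 and 2099 normalized counts at 0X-Cys, 6191, 6870, 4844 and 6625 at 1X-Cys, and 3223, 3454, 3068 and 3338 at 10X-Cys. No group overlapped another, and the order was 1X-Cys, 10X-Cys, 0X-Cys. The 1X-Cys mean was 2.82 times the mean without cysteine and 1.87 times that in the excess. Per kilobase of transcript its level was 1174 normalized counts at 1X-Cys and 417 at 0X-Cys, against 363 and 887 for MT2A. Fragments of MT2A can be fewer than its reads, so the order of the 2 genes at 0X-Cys is uncertain. The log2 fold changes were -1.48 ± 0.107 for 0X-Cys against 1X-Cys (adjusted p = 9.08e-07), -0.90 ± 0.0808 for 10X-Cys against 1X-Cys (adjusted p = 5.91e-08) and 0.59 ± 0.0512 for 10X-Cys against 0X-Cys (adjusted p = 4.61e-10). It was lower on withdrawal, where the metallothioneins were higher, and lower together with them in the excess, both against the same 1X-Cys libraries.

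**Figure D2:**
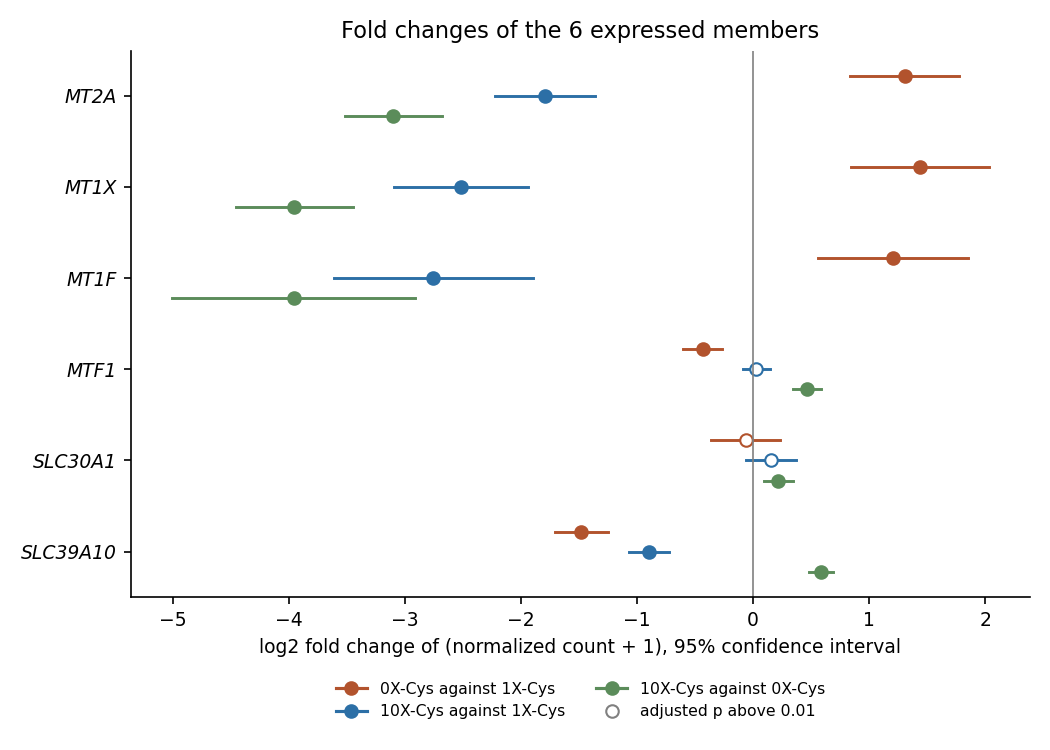
Log2 fold change (x axis, on normalized count + 1) with its 95% confidence interval for the 6 tested genes in each comparison; filled points have a limma adjusted p of 0.01 or less. MT2A, MT1X and MT1F lie right of 0 for 0X-Cys against 1X-Cys and left of it for both 10X-Cys comparisons, whereas SLC39A10 is negative in both comparisons with 1X-Cys.

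One library, 1X-Cys replicate 3, was the extreme 1X-Cys library for several of these genes, though within the spread that Dixon's test allows. It had the lowest 1X-Cys counts of SLC30A1, SLC39A10 and MTF1 and the highest of MT1X and MT2A. The gap to its nearest neighbour over the range was at most 0.815 (MTF1), under the 95% critical value, which none of the 12 groups of 4 libraries examined passed. It also had 52287 normalized counts of HSPA1A, which encodes a stress-induced heat shock protein, against 87495 to 112705 in the other 1X-Cys libraries. Replicate 4 had the lowest MT1X (70.2) and the highest HSPA1A, yet the highest MT1F (39.5). With 4 libraries no relation between these values was tested.

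The genes whose pattern over the 10 libraries was most like that of MT2A were HSD17B8, TRAPPC6A, DHRS2, LINC00467 and ZFAND2A-DT. Likeness was the root mean square difference of centred log2(normalized count + 1), which was 0.348 for HSD17B8 and 0.461 for ZFAND2A-DT among 14550 candidate genes, and 0.515 for MT1X. DHRS2, a short-chain dehydrogenase, read 788, 183 and 55.0 normalized counts on average at 0X, 1X and 10X-Cys. Those most like SLC30A1 were ANGEL2, TTLL11, SLC25A42, BCDIN3D-AS1 and ACVR2B, at 0.0668 to 0.0863 among 14549 candidates.

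Other zinc transporters were examined to see how far the movement of SLC39A10 was shared. The remaining SLC39 genes bring zinc into the cytosol. At 0X-Cys, 4 of the 11 tested were lower than at 1X-Cys and none higher, with a median log2 fold change of -0.17. Over all genes 8.51% were called lower and 7.39% higher. Among them SLC39A7, which releases zinc from the endoplasmic reticulum, changed by -0.61 ± 0.0592 (adjusted p = 1.06e-05). SLC39A1 changed by -0.52 and SLC39A4, the importer of intestinal zinc uptake, by -0.46. In the excess 5 of the 11 were lower and 2 higher than at 1X-Cys, where 22.9% of all genes were called lower and 23.1% higher. SLC39A4 had the largest fall of the list, from 709 ± 36.4 to 142 ± 7.55 normalized counts (log2 fold change -2.31 ± 0.0820, adjusted p = 5.93e-13), followed by SLC39A11 (-0.88) and SLC39A3 (-0.67). SLC39A9 and SLC39A14 rose by 0.47 and 0.35.

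The called zinc exporters and vesicle loaders other than SLC30A1 went both ways on withdrawal. At 0X-Cys 2 of the 8 tested genes were called, SLC30A6 higher (0.40) and SLC30A7 lower (-0.43), and both load zinc into the secretory pathway. Of all genes 15.9% were called there. At 10X-Cys 5 of the 8 were higher and 1 lower than at 1X-Cys, against 23.1% and 22.9% of all genes, and the median was 0.41. SLC30A10, known chiefly as a manganese exporter, went from 126 ± 9.99 to 451 ± 28.9 normalized counts (1.83 ± 0.0953, adjusted p = 6.48e-11). The mitochondrial transporter SLC30A9 fell by 0.30.

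Copper genes that changed on withdrawal all fell. Of the 15 genes of copper handling, 7 were lower at 0X-Cys than at 1X-Cys and none higher, against 8.51% and 7.39% of all genes, led by SCO2 (-0.52), CUTC (-0.52) and the copper-exporting ATPase ATP7A (-0.46). SCO2 helps load copper into cytochrome oxidase. In the excess 8 were lower and 2 higher, against 22.9% and 23.1% of all genes. ATOX1, the chaperone that hands copper to the exporting ATPases, fell from 805 ± 13.7 to 341 ± 8.96 normalized counts (-1.24 ± 0.0643, adjusted p = 6.46e-11). SOD1, the copper and zinc superoxide dismutase, fell by 0.74 and ATP7B by 0.71. The copper importer SLC31A1 rose by 0.29. The list medians were -0.20 at 0X-Cys and -0.24 at 10X-Cys, against 0.00 and 0.01 over all genes. The shares of all genes given here include low-count genes. Among genes at 50 or more normalized counts in at least 3 libraries, 2631 of 21198 were called lower at 0X-Cys and 2247 higher. At 10X-Cys 6426 of them were called lower and 5982 higher.

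Genes that heavy metals and oxidants also induce split within the list. HMOX1, heme oxygenase 1, averaged 592 ± 44.1 at 0X-Cys, 389 ± 40.3 at 1X-Cys and 2664 ± 184 at 10X-Cys. It was called higher at 0X-Cys (0.61) and at 10X-Cys (2.78) than at 1X-Cys. SLC7A11, the cystine importer, was higher in both as well (1.12 and 1.88), and TXNRD1 was higher at 10X-Cys (1.70). The heat shock genes HSPA1A and HSPA1B, which are near-identical copies whose reads are uncertain between them, were lower in both (-2.23 and -2.25 at 0X-Cys, -3.70 and -3.71 at 10X-Cys). Of the 10 genes, 2 were higher and 6 lower at 0X-Cys, and 5 were higher and 4 lower at 10X-Cys. The shares of all genes called were 15.9% and 46.0%. HMOX1 and the metallothioneins thus moved the same way on withdrawal and opposite ways in the excess, each against the same 1X-Cys libraries. Only part of the list shared this on withdrawal. SLC7A11 was also higher at 0X-Cys (1.12), whereas SRXN1 was lower at 0X-Cys (-0.83) and higher at 10X-Cys (0.50) than at 1X-Cys. TXNRD1 and GCLM were not called at 0X-Cys against 1X-Cys.

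**Figure D3:**
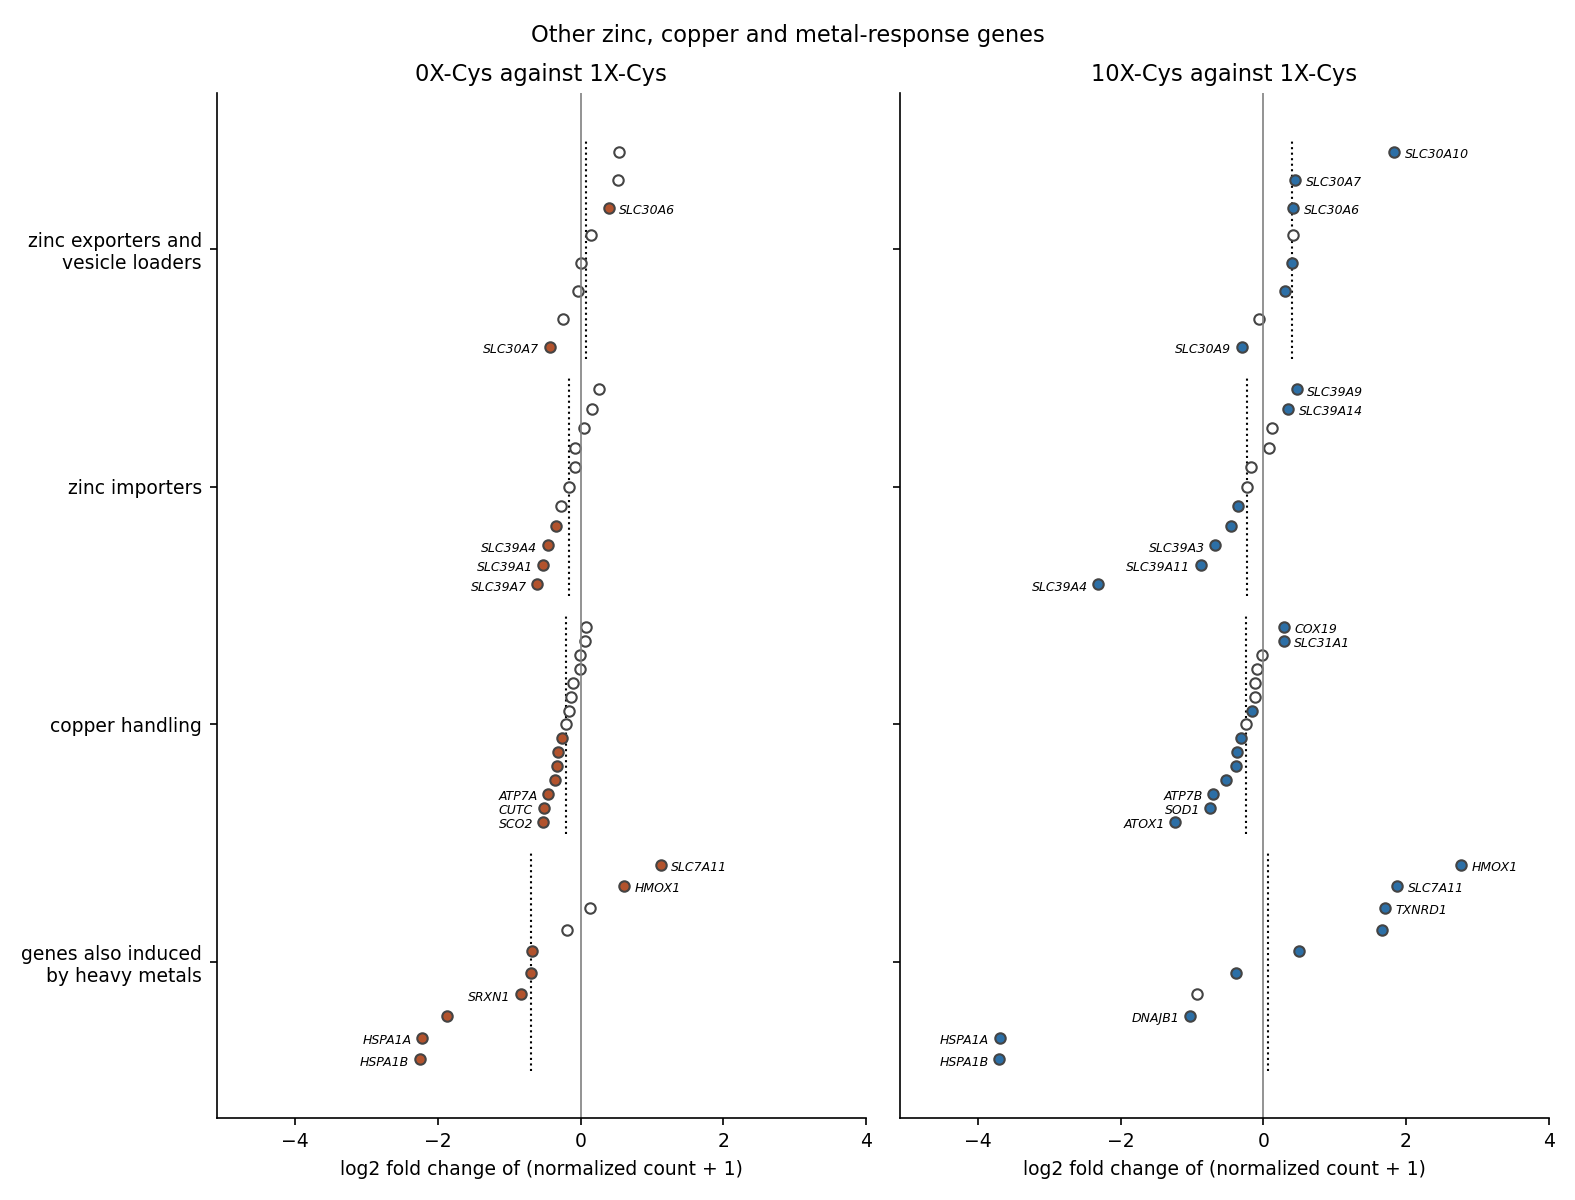
Log2 fold change (x axis, on normalized count + 1) of every tested gene of 4 lists for 0X-Cys (left) and 10X-Cys (right) against 1X-Cys; filled points have an adjusted p of 0.01 or less, dotted lines are list medians and the named genes are the largest called changes. SLC39A4 and the HSPA1 genes lie farthest left and HMOX1 farthest right at 10X-Cys.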

How the data were processed

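HEK293T cells in 3 cysteine conditions were profiled by poly(A) mRNA sequencing with a directional kit. According to the study's methods and the submitters' processing notes, the authors mapped reads to GRCh38 with STAR 2.7.10b, assigned them to genes and divided the counts by DESeq2 size factors. The deposited normalized counts (a signal, in units of reads divided by a size factor) were taken as given. Dividing by the step of each library gave whole reads for 100.00% of values (tolerance 0.01), so the count alternatives used those. Of 78894 gene identifiers, 61463 were matched.

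Genes at 10 or more normalized counts in at least 3 of 10 libraries (29045) were tested with limma 3.58.1 (trended variance, two-sided) on log2(normalized count + 1), using only the 2 groups compared, and called at a Benjamini-Hochberg adjusted p of 0.01 or less. Alternatives were edgeR 4.0.16 (quasi-likelihood), DESeq2 1.42.0, other scalings, pseudocounts, filters and left-out libraries. Genes named from each list were the up to 3 largest called increases and decreases at a mean of 100 or more; MT1H, MT1P1 and ENSG00000259827 were picked with their values in view. The genes and lists were chosen with earlier results of these data known. Positions come from GENCODE 44 and promoters from RefSeq GRCh38.p14. Replicates of a group differed by more than sampling noise (chi-square per degree of freedom 3.53 to 14.7).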

Additional observations from a re-analysis of the deposited data

How the results depend on the processing

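The 18 fold changes of the 6 tested genes were each recomputed under 16 to 19 alternatives, 315 values in all, of which 292 kept their direction and their side of the threshold. For 20 values a call was lost, all of them in the 2 comparisons with 0X-Cys, and 3 changed sign, each in a difference that had not been called. These were SLC30A1 at 0X-Cys against 1X-Cys (0.0037 without 0X-Cys replicate 1 and 0.018 without 1X-Cys replicate 4, over a range of -0.20 to 0.018) and MTF1 at 10X-Cys against 1X-Cys (-0.0050 without 1X-Cys replicate 3, over -0.0050 to 0.048 with a library left out and up to 0.13 under the other alternatives). For 0X-Cys against 1X-Cys, 4618 genes and 5 of the 9 genes were called. With no filter on low values these were 738 and 0, and the cause was not tested. With no filter 10947 genes were called for 10X-Cys against 1X-Cys and 8864, against 13954, for 10X-Cys against 0X-Cys. An adjusted p of 0.05 called 7987 genes for 0X-Cys against 1X-Cys. Leaving out a library gave 978 to 6300 genes and 1 to 5 of the 9 genes there, 11958 to 13691 and always 4 at 10X-Cys against 1X-Cys, and 11593 to 13334 and 5 to 6 at 10X-Cys against 0X-Cys; a group left with 1 library was assumed to vary like the other. Deviations of same-numbered libraries had correlations of -0.03 to 0.04 over 8 pairs. Not every library correlated best with its own number, so no pairing by number was seen. The deviations of the 2 libraries at 0X-Cys mirror each other, so the 8 pairs are not independent. This check cannot decide whether libraries shared a culture or batch. With a replicate block 6532, 13392 and 12393 genes and 5, 4 and 6 of the 9 genes were called. MT1F was called at 0X-Cys against 1X-Cys in 9 of 16 alternatives, its reads at 10X-Cys limit the size of its fall, and 2 libraries at 0X-Cys limit the rest.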
